A study of Mus musculus with 6 samples.

Results

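The genes described here are endothelial markers and angiogenic signalling genes, 38 in all, measured in brown adipose tissue (BAT) of mice that lack KRAP. Members were fixed by symbol, and a probe set was used only where the platform annotation gave it that symbol alone. Each gene was read from the probe set with the highest mean signal over all arrays. All 38 were found among the 18194 genes that the array names by 1 symbol, and all 38 were bright enough to be tested. Of their 76 probe sets, 67 were tested.

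The study compared 3 KRAP-/- mice (KO) with 3 wild-type littermates (WT), numbered as 3 pairs, with 1 Affymetrix array for the BAT of each animal. The animals were 32 weeks old and ate normal chow. KRAP, a protein bound to the actin cytoskeleton, had been disrupted in every tissue of the KO mice by putting a neomycin resistance cassette in place of part of its exons, on a line backcrossed to C57BL6/J, so a difference in BAT need not start in BAT. The sex of these animals is not given in the labels.

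Blood vessels of BAT are dense, since they bring oxygen and fuel to the brown adipocytes and carry away heat. Vessel growth is driven by VEGF ligands, made largely by the adipocytes, which act on receptors of endothelial cells, while angiopoietins set vessel stability through the Tie receptors. Notch signalling between neighbouring endothelial cells and the SoxF and ETS transcription factors set arterial and endothelial identity.

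Each signal below is divided by the median signal of its array, and differences are given as the log2 signal in KO minus that in WT, from a fit with the littermate pair as a term. Medians ran from 16.5 to 20.4 intensity units over the 6 arrays. By its control probe sets the array of WT 2 stood apart from the others, with a 3' to 5' signal ratio of 3.80 for actin against 1.91 to 2.58 on the other arrays and an 18S rRNA signal of 1731 intensity units against 112.4 to 214.9. The log2 difference without pair 2, which holds that array, is therefore given for every member's chosen probe set and for most other genes named. The single probe set for KRAP itself (Itprid2) read 35.1 to 47.0 in KO and 42.2 to 56.6 in WT, lower in KO in 3 of 3 pairs (log2 difference -0.32, limma adjusted p = 0.72, and -0.13 without pair 2). Whether it lies inside the replaced part of the gene is not known here, so it does not check the labels. With only 6 arrays, precision is limited throughout.

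Most of the vessel genes lay lower in KO, by small amounts, and none of the 38 passed the adjusted test. The fit with limma and Benjamini-Hochberg adjustment called 0 of 38 members, with adjusted p from 0.515 to 1, and 0 of all 22356 tested probe sets (0% called). Of all tested probe sets, 8.55% had an unadjusted limma p under 0.05. At an unadjusted limma p under 0.05 there were 3 members, the apelin receptor Aplnr, the receptor Notch4 and the transcription factor Sox7, all lower in KO. That is 7.89% of the members, beside 5.14% of all tested probe sets that were lower in KO by that rule. Log2 differences were below 0 for 29 of 38 members (76.3%), beside 61.5% of the genes read by their brightest probe set. The median log2 difference of the members was -0.18, beside -0.05 over all tested probe sets and -0.07 over the 11140 genes read by their brightest tested probe set.

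By littermate pair, 13 of the 38 members (34.2%) lay lower in KO in 3 of 3 pairs, beside 19.7% of the genes read by their brightest probe set. They were Kdr, Nrp1, Tie1, Notch4, Sox7, Sox18, Erg, Fli1, Aplnr, Nos3, Cdh5, Emcn and Clec14a. Another 2 members (5.26%), Vegfa and Calcrl, lay higher in KO in 3 of 3 pairs, beside 10.9% of the genes. Tie1 alone had 3 KO signals below the 3 WT signals, a pattern that 7.87% of the genes showed. No member differed by 2-fold or more. The 95% confidence interval of a member reached 0.53 to either side of its log2 difference at the median, and 0.44 to 1.32 over all members, so changes smaller than this could not be resolved with 3 pairs.

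The 3 pairs did not contribute alike. The members' median log2 difference was 0.07 in pair 1, -0.32 in pair 2 and -0.30 in pair 3, beside -0.03, -0.24 and 0.06 over all genes. In 26 of 38 members pair 1 had the highest difference of the 3 pairs. WT 2 held the highest of the 6 signals in 12 members, as in 30.5% of all tested probe sets. Without pair 1, 29 of 38 members (76.3%) lay lower in KO in both pairs that were left, beside 32.8% of all genes. Without pair 2 the count was 14 (36.8%, beside 25.0% of all genes), and without pair 3 it was also 14 (36.8%, beside 40.8%). These counts over the pairs left were added after the values had been seen. The members' median was -0.33 without pair 1, -0.11 without pair 2 and -0.17 without pair 3. The summed signal of the 29 endothelial markers among the members was 271.3, 268.8 and 269.4 in KO 1 to 3 against 253.0, 358.3 and 343.9 in WT 1 to 3. The sum was nearly level over the KO animals, and WT 1 lay below all of them while WT 2 and WT 3 lay above. Aplnr, low in both animals of pair 1, gave 3.30, 35.1 and 28.8 of the KO sums. It gave 10.1, 41.5 and 46.5 of the WT sums. The level KO sums and the place of WT 1 below them rest on that gene. In whole tissue, fewer endothelial cells and less of these RNAs per endothelial cell cannot be told apart.

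**Figure D1:**
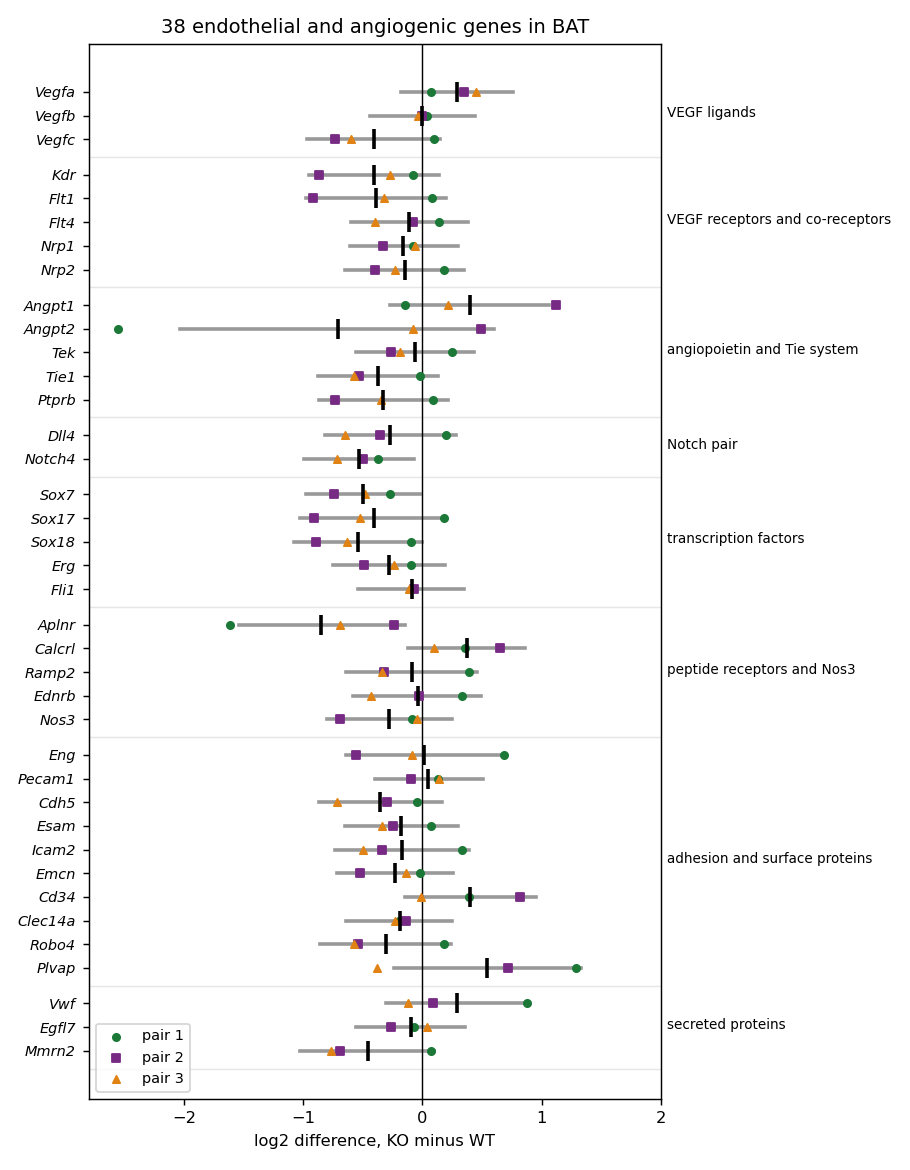
Log2 difference (KO minus WT, x axis) of each of the 38 genes (y axis), ordered by role. Black ticks are the fitted differences, grey bars their 95% confidence intervals, and coloured symbols the differences in pairs 1, 2 and 3 of littermates. The fitted differences of 29 genes lie below 0, and in 26 the green symbol (pair 1) lies to the right of both other pairs.

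The VEGF ligands did not move together. Vegfa, the main growth signal for capillaries, read 67.4, 52.1 and 64.8 in KO 1 to 3 against 64.3, 40.9 and 47.5 in WT 1 to 3. Its log2 difference was 0.29 (95% confidence interval -0.18 to 0.76, limma adjusted p = 0.721) and 0.26 without pair 2, and its second probe set, dimmer, differed by 0.09 in the same direction in 3 of 3 pairs. KO lay above WT within every pair, yet WT 1 lay inside the KO range. Vegfb, a ligand of Flt1 found in tissues that burn fat, read 38.7, 35.2 and 33.0 in KO against 37.6, 35.3 and 33.9 in WT. The Vegfb groups overlapped throughout, and the log2 difference was 0.00012 (-0.44 to 0.44) and 0.00077 without pair 2. Vegfc, the growth factor of lymphatic vessels, differed by -0.41 (-0.97 to 0.15) and by -0.25 without pair 2, with -0.73 in pair 2, -0.60 in pair 3 and 0.10 in pair 1. Its dimmer probe sets differed by -0.72 and -0.22. The Vegfc probe set used is of a kind (suffix _x_at) that may bind related transcripts as well.

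All 5 VEGF receptors and co-receptors had differences below 0, and Kdr and Nrp1 were lower in KO in 3 of 3 pairs. Kdr, the receptor through which VEGF-A drives endothelial growth, read 11.8, 13.1 and 16.2 in KO against 12.5, 23.9 and 19.5 in WT. The log2 difference of Kdr was -0.41 (-0.95 to 0.14, limma adjusted p = 0.673) and -0.18 without pair 2, since the KO to WT ratio was 0.546 in pair 2 and 0.943 and 0.829 in pairs 1 and 3. WT 1 lay within the KO range of Kdr, and WT 2 and WT 3 above it.

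Flt1, which binds VEGF-A and VEGF-B tightly and limits their action on Kdr, read 11.1, 8.76 and 9.24 in KO against 10.5, 16.6 and 11.5 in WT. KO 1 exceeded WT 1 and the groups overlapped, with a log2 difference of -0.39 (-0.98 to 0.20) that was -0.12 without pair 2. The other 3 probe sets of Flt1 differed by -0.23, -0.18 and 0.01. Flt4, the receptor of VEGF-C, differed by -0.11 (-0.13 without pair 2) and its dimmer probe set by 0.20. The co-receptors Nrp1 and Nrp2, which bind VEGF and semaphorins, differed by -0.16 and -0.15, and by -0.07 and -0.02 without pair 2. The remaining Nrp1 probe sets ran from -0.24 to 0.45, on both sides of 0.

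In the angiopoietin and Tie system Tie1 lay lower in KO in 3 of 3 pairs, and the other 4 genes differed in direction between pairs. Angpt1, the activating ligand made by cells around the vessel, read 10.1, 15.2 and 17.1 in KO against 11.2, 6.99 and 14.8 in WT. The Angpt1 difference of 0.40 (-0.27 to 1.06) rested on pair 2, with a ratio of 2.17, and was 0.03 without it. Its dimmer probe set differed by 0.63 (limma adjusted p = 0.569) and lay higher in KO in 3 of 3 pairs. Angpt2, the ligand that endothelial cells store and that can oppose Angpt1, read 0.144, 1.46 and 0.96 in KO against 1.47, 1.04 and 1.02 in WT. The value of KO 1 lay below the floor of 0.25 and was set to it, so the log2 difference of -0.71 (-2.03 to 0.60) rested on 1 array and was 0.21 without pair 1 and -1.32 without pair 2.

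Tek, the angiopoietin receptor, read 10.6, 8.42 and 7.56 in KO against 8.86, 10.1 and 8.62 in WT, and the groups overlapped (log2 difference -0.06, -0.56 to 0.43). Tek was higher in KO in pair 1, and its difference turned to 0.03 without pair 2 and to 0.02 after quantile normalization. Its partner receptor Tie1 read 3.46, 2.96 and 2.49 in KO against 3.52, 4.28 and 3.69 in WT. The highest KO value of Tie1 was just below the lowest WT value, both from pair 1, and the log2 difference was -0.37 (-0.88 to 0.13, limma adjusted p = 0.673) and -0.30 without pair 2. Ptprb, the phosphatase that switches off Tek, differed by -0.33 (-0.87 to 0.21), by -0.13 without pair 2, and by -0.42 in its second tested probe set. It was lower in KO in pairs 2 and 3 and slightly higher in pair 1.

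Notch4, the Notch receptor found mainly in endothelium, was among the most even of the differences across pairs. It read 4.53, 6.29 and 4.51 in KO 1 to 3 against 5.86, 8.92 and 7.42 in WT 1 to 3. The KO mean was 5.11 ± 1.02 and the WT mean 7.40 ± 1.53 (SD, n = 3), 1.45-fold lower in KO. The log2 difference was -0.53 (-0.99 to -0.07, limma adjusted p = 0.538) and stayed at -0.61, -0.54 and -0.44 without pairs 1, 2 and 3 in turn. Only KO 2 reached into the WT range. The ligand Dll4, which marks the leading cell of a vessel sprout, differed by -0.27 (-0.82 to 0.28), by -0.23 without pair 2, and was higher in KO in pair 1. A dimmer Dll4 probe set also differed by -0.23, but was lower in KO in pair 1 (-0.48) and level in pair 2 (0.02).

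Promoter windows of 300 bases from RefSeq (GRCm38.p6), which cover the bases around a transcript start, were at hand for 21 of the 38 members, 26 windows in all. Notch4 and Tie1 are shown because both lay lower in KO in 3 of 3 pairs and their windows hold the most matches, 4 and 3, to the core bound by ETS factors such as Erg and Fli1 among the members with that direction. Capitals mark CGGAAG or AGGAAG on either strand, written CTTCCG or CTTCCT where the match is on the opposite strand. The Notch4 window lies at chr17:34564045-34564344 on the plus strand and the Tie1 window at chr4:118489800-118490099 on the minus strand, both 5' to 3' along the gene.
Notch4: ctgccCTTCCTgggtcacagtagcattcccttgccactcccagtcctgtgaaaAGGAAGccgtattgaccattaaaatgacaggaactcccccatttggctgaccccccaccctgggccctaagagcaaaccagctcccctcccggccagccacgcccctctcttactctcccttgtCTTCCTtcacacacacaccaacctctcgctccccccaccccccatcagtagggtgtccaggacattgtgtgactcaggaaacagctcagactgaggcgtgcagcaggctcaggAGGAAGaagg
Tie1: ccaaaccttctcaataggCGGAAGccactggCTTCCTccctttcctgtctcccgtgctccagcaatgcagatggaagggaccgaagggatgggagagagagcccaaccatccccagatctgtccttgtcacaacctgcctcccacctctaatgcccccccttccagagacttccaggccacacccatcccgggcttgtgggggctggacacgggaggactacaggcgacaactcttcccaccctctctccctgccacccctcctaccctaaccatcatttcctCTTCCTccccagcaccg
The core was in 12 of the 26 member windows (46.2%), beside 46.5% of all 32851 windows of this length. The core AACAAT of SOX factors was in 4 member windows (15.4%, beside 10.7% of all), the hypoxia response core ACGTG in 2 (7.69%, beside 19.6%) and the core GTGGGAA of the Notch effector RBPJ in 2 (7.69%, beside 6.38%). A match to such short letters is a description of the sequence and not a binding site.

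The 5 endothelial transcription factors all had differences below 0, and 4 of them, Sox7, Sox18, Erg and Fli1, were lower in KO in 3 of 3 pairs. Sox7, Sox17 and Sox18 form the SoxF group, which acts in arterial and lymphatic development. Sox7 read 4.06, 6.06 and 6.30 in KO against 4.90, 10.1 and 8.80 in WT. The log2 difference of Sox7 was -0.50 (-0.98 to -0.02, limma adjusted p = 0.57), and -0.38 without pair 2. WT 1 lay among the KO values, while WT 2 and WT 3 lay above all of them.

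Sox18 read 5.97, 11.4 and 13.3 in KO against 6.39, 21.1 and 20.5 in WT, 1.45-fold lower in KO (log2 difference -0.54, -1.08 to 0.00, limma adjusted p = 0.586). The KO to WT ratios of Sox18 were 0.935, 0.541 and 0.647, and the difference was -0.36 without pair 2. Both animals of pair 1 lay far below the other 4. Sox17 read 9.71, 8.05 and 8.02 in KO against 8.55, 15.1 and 11.5 in WT. It was higher in KO in pair 1, with a log2 difference of -0.41 (-1.03 to 0.20) that was -0.17 without pair 2, and its probe set is also of the kind that may bind related transcripts. The ETS factors Erg and Fli1 differed by -0.28 and -0.09 (-0.17 and -0.10 without pair 2), and a dimmer Fli1 probe set by -0.46, also lower in KO in 3 of 3 pairs.

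Aplnr, the receptor through which apelin acts on veins and growing vessels, had the largest difference of the members. It read 3.30, 35.1 and 28.8 in KO 1 to 3 against 10.1, 41.5 and 46.5 in WT 1 to 3. KO was 1.80-fold lower, with a log2 difference of -0.85 (-1.54 to -0.15, limma adjusted p = 0.515), and the ratio ran from 0.328 in pair 1 to 0.845 in pair 2. The difference was -0.47 without pair 1 and -1.15 without pair 2, and a second, dimmer probe set gave -0.94, lower in KO in 3 of 3 pairs. The WT animal of pair 1 lay below KO 2 and KO 3.

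The other receptors on this list bind vasoactive peptides. Calcrl and Ramp2 together form the adrenomedullin receptor, and they did not move together. Calcrl read 3.01, 4.37 and 4.36 in KO against 2.34, 2.78 and 4.08 in WT. It lay higher in KO in 3 of 3 pairs, by 0.37 (-0.12 to 0.86, limma adjusted p = 0.673) and by 0.23 without pair 2, though WT 3 was inside the KO range. Ramp2 differed by -0.09 and turned to 0.03 without pair 2, with 0.39 in pair 1 and -0.32 and -0.34 in pairs 2 and 3. Ednrb, the endothelin receptor of endothelium, differed by -0.04 (-0.05 without pair 2), and its dimmer probe sets by 0.22 and 0.30, both higher in KO in 3 of 3 pairs.

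Nos3, the endothelial nitric oxide synthase that relaxes vessels, read 14.3, 14.5 and 13.3 in KO against 15.2, 23.4 and 13.7 in WT. KO was lower in 3 of 3 pairs, but by ratios of 0.937 and 0.968 in pairs 1 and 3 against 0.62 in pair 2. The log2 difference was -0.28 (-0.80 to 0.25, limma adjusted p = 0.77) and -0.07 without pair 2, and WT 3 lay within the KO range.

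Adhesion and surface proteins of the endothelium split in direction, with 6 of 10 below 0. Pecam1, which joins endothelial cells at their contacts and is also found on platelets and leukocytes, read 5.60, 4.58 and 5.58 in KO against 5.11, 4.92 and 5.08 in WT. The Pecam1 groups overlapped, with a log2 difference of 0.05 (-0.40 to 0.51) that was 0.13 without pair 2. Cdh5, the cadherin of endothelial junctions, read 5.48, 6.25 and 5.26 in KO against 5.66, 7.71 and 8.67 in WT. KO was lower in 3 of 3 pairs by -0.36 (-0.87 to 0.16, limma adjusted p = 0.694) and by -0.38 without pair 2, and only KO 2 exceeded the lowest WT value.

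Of the other surface proteins, Esam, Icam2, Emcn, Clec14a and Robo4 had log2 differences from -0.31 to -0.17, and Emcn and Clec14a were lower in KO in 3 of 3 pairs. Without pair 2 these differences were -0.14 for Esam, -0.09 for Icam2, -0.08 for Emcn, -0.22 for Clec14a and -0.20 for Robo4. Eng, a co-receptor for TGF-beta and BMP ligands, differed by 0.01, averaging 0.68 in pair 1 with -0.56 and -0.09 in pairs 2 and 3, and by 0.29 without pair 2. Its second probe set gave -0.32. Cd34, carried by capillary endothelium and also by adipocyte progenitors, differed by 0.40 (-0.15 to 0.95) and by 0.19 without pair 2, higher in KO in pairs 1 and 2 and level in pair 3. Plvap, which forms the diaphragms of endothelial pores, differed by 0.54 (-0.24 to 1.33) and by 0.46 without pair 2, but its pairs ran from 1.29 in pair 1 to -0.38 in pair 3.

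Of the 3 secreted proteins, Vwf, which endothelial cells and platelets store for clotting, read 4.03, 3.21 and 4.17 in KO against 2.19, 3.01 and 4.52 in WT. The Vwf groups overlapped, and the log2 difference of 0.29 (-0.31 to 0.89) was -0.01 without pair 1 and 0.38 without pair 2. Mmrn2, a matrix protein of endothelium that binds Clec14a, read 11.1, 11.4 and 10.9 in KO against 10.6, 18.4 and 18.6 in WT. KO was nearly constant, and WT 2 and WT 3 stood well above the other 4 arrays, for a log2 difference of -0.46 (-1.03 to 0.10, limma adjusted p = 0.646) that was -0.35 without pair 2. Its other probe sets gave -0.38, -0.36 and 0.13. Egfl7, a factor that endothelial cells lay down in the vessel wall, differed by -0.10 and by -0.02 without pair 2. Its probe set is also of the kind that may bind related transcripts. The other Egfl7 probe sets ran from -0.12 to 0.24, on both sides of 0.

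**Figure D2:**
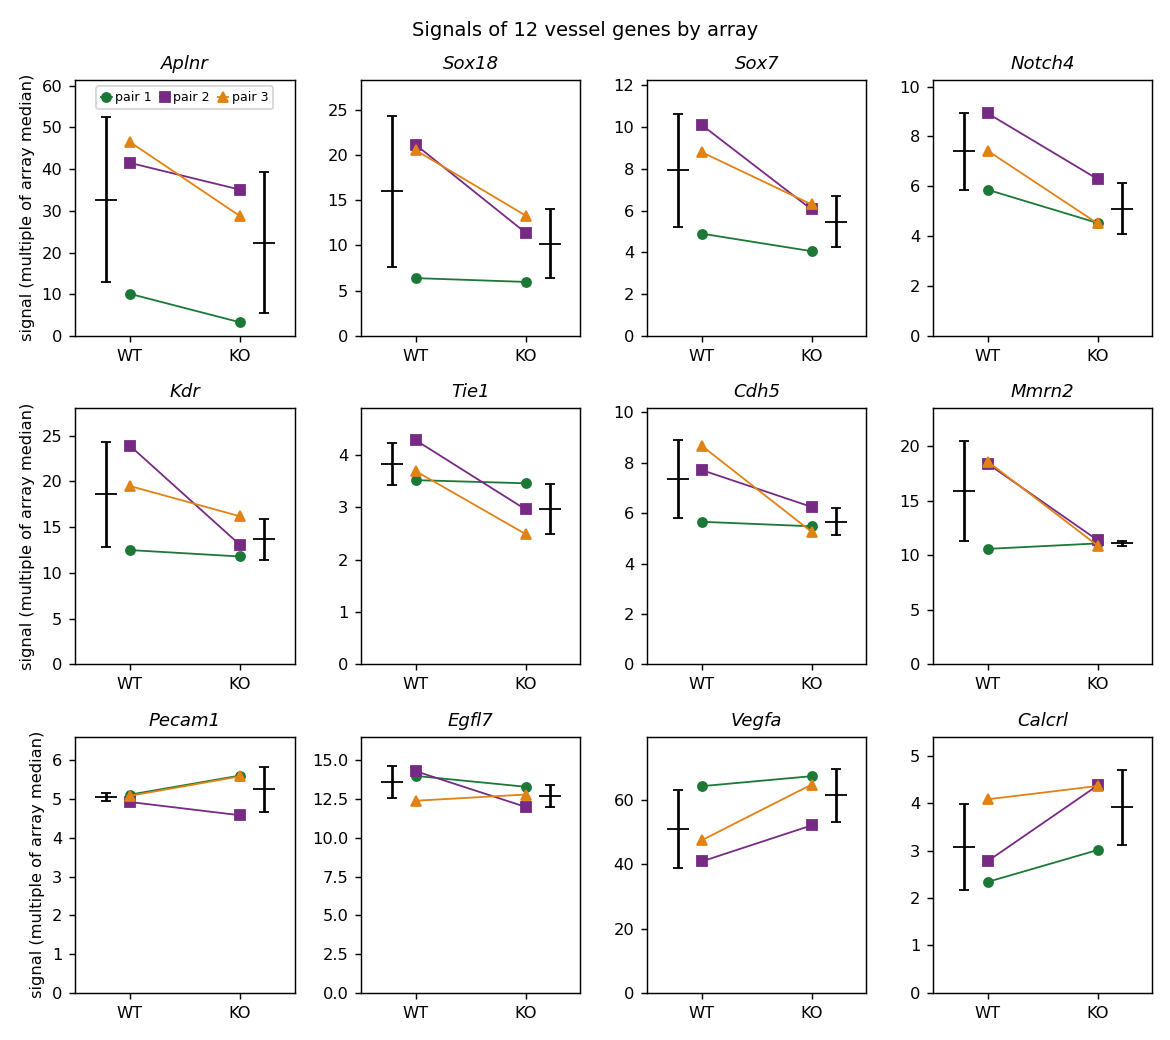
Signal of 12 of the genes on each array (y axis, multiple of the array median) in WT and KO (x axis), with lines joining the littermates of a pair. Black bars beside the points are the mean and SD of each group (n = 3). Aplnr and Sox18 are low in both animals of pair 1, Mmrn2 is high in WT 2 and WT 3 alone, and Pecam1 is level over all 6 arrays.

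Some members differed more between litters than between genotypes. The mean of both genotypes of Aplnr was 6.48-fold higher in pairs 2 and 3 than in pair 1, and only 0.0492% of tested probe sets lay as far below in pair 1 or farther. Sox18 was 2.59-fold, Sox7 1.71-fold and Kdr 1.46-fold higher in pairs 2 and 3. In 6 members (Kdr, Flt4, Sox7, Sox18, Aplnr and Clec14a) both animals of pair 1 lay below the other 4, as in 12.6% of all tested probe sets. In 5 members (Vegfb, Nrp1, Nrp2, Ednrb and Icam2) both lay above, as in 15.3%. No test was made of this, since the labels give no reason to set pair 1 apart. Among the control probe sets, the 3' to 5' signal ratio of pyruvate carboxylase was 10.7 in KO 1 and 8.99 in WT 1. On the other arrays it was 22.1 to 52.9, highest in WT 2. The actin ratio, 1.95 in KO 1 and 2.06 in WT 1, lay within the range of the others. Whether litter, RNA quality or array handling underlies the split was not tested.

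A split between litters in the opposite direction from Aplnr, with higher signals in pair 1, was present outside the members. It is shown for 3 genes chosen after their values were seen. Klf2, a transcription factor that endothelium raises under blood flow, read 34.1 and 31.4 in KO 1 and WT 1 and 6.32 to 13.9 elsewhere. Klf4, its relative, read 60.7 and 58.0 in pair 1 and 10.9 to 27.5 elsewhere. Ppargc1a, the coactivator of mitochondrial genes that cold and adrenergic signals raise in brown fat, read 111 and 72.7 in pair 1 and 9.88 to 12.2 elsewhere. Their part in the low Aplnr and Sox18 signals of pair 1 was not tested.

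**Figure D3:**
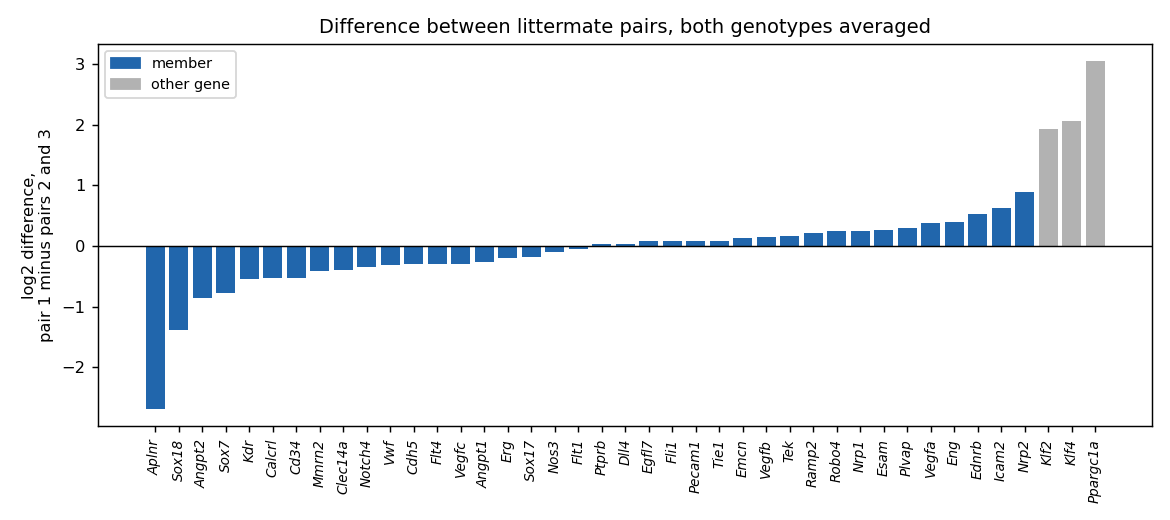
Log2 difference between pair 1 and pairs 2 and 3, both genotypes averaged (y axis), for the 38 genes (blue) and for Klf2, Klf4 and Ppargc1a (grey), in order of size along the x axis. Aplnr at -2.69 and Sox18 at -1.38 lie farthest below 0 among the members, and the grey bars lie above 1.9.

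Further genes of the VEGF, Tie and Notch pathways were read from the same fit. Of 18 on the array, 14 were tested and 0 passed the adjusted limma test. Of the 14, 4 had an unadjusted limma p under 0.05, all lower in KO. By that rule 5.14% of all tested probe sets were lower in KO. Those 4 were Hey1, Hes1, Efnb2 and Dll1, the latter pair chosen after their values were seen. The median over the 14 was -0.06, so the list as a whole lay close to all probe sets at -0.05.

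Hey1, a repressor that Notch switches on in arterial endothelium, read 1.30, 2.12 and 0.831 in KO 1 to 3 against 3.05, 3.88 and 1.64 in WT 1 to 3. Each KO animal lay well below its littermate, with a log2 difference of -1.03 (-1.49 to -0.56, limma adjusted p = 0.396), and -1.10 without pair 2. Hes1, another Notch target that many cell types express, read 1.32, 1.71 and 1.15 in KO against 2.23, 2.41 and 2.93 in WT. The Hes1 groups did not overlap, and the log2 difference was -0.87 (-1.42 to -0.31, adjusted p = 0.439 by limma) and -1.05 without pair 2.

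Efnb2, the ephrin of arterial endothelium, differed by -0.73 (limma adjusted p = 0.482), and by -0.93 without pair 2, with no overlap of the groups, although a second probe set gave -0.04. The Notch ligand Dll1 differed by -0.59 (limma adjusted p = 0.505), by -0.67 without pair 2, and was lower in KO in 3 of 3 pairs. Not all of the pathway lay lower. Notch1 read 7.27, 4.78 and 4.68 in KO against 5.76, 6.98 and 4.39 in WT, a log2 difference of -0.04 (0.21 without pair 2) with overlapping groups. The other Notch1 probe set differed by 0.41.

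**Figure D4:**
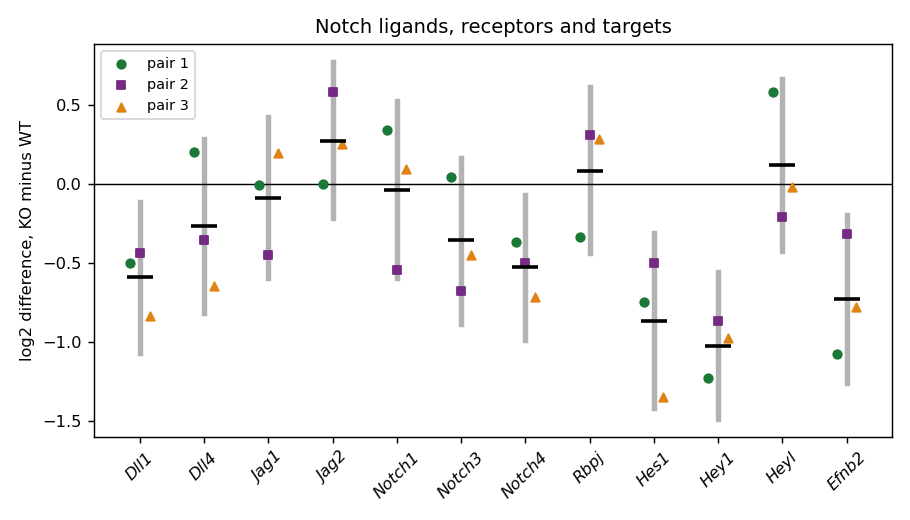
Log2 difference (KO minus WT, y axis) of Notch ligands, receptors and targets and of Efnb2 (x axis). Black ticks are fitted differences, grey bars 95% confidence intervals, and symbols pairs 1, 2 and 3. Hey1, Hes1, Efnb2, Dll1 and Notch4 lie below 0 in all 3 pairs, whereas Notch1 at -0.04, Jag2 at 0.27 and Heyl at 0.12 do not. Each gene is shown by its brightest probe set. Other tested probe sets differed by 0.41 for Notch1, 1.19 for Jag2, -0.65 to 0.01 for Heyl and -0.04 for Efnb2.

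Other endothelial lists had 0 genes past the adjusted limma test. Their counts stand beside 61.5% of all genes below 0, and 19.7% lower and 10.9% higher in KO in 3 of 3 pairs. The median over all genes was -0.07, and 0.01 without pair 2. Endothelial transcription factors outside the members had a median of -0.27 over 14 tested genes, and of -0.13 without pair 2. Of these genes, 12 lay below 0 and 4 were lower in KO in 3 of 3 pairs. Mecom, a factor of arterial endothelium, and Tcf4 differed by -0.40 and -0.35 (-0.23 and -0.26 without pair 2). Other endothelial surface and junction genes had a median of -0.11 over 21 genes, and of 0.01 without pair 2. Of these genes, 5 lay lower and 1 higher in KO in 3 of 3 pairs. Among them Cldn5, the claudin of endothelial tight junctions, read 13.9, 10.3 and 13.9 in KO against 21.1, 12.7 and 17.6 in WT, a log2 difference of -0.42 (-0.87 to 0.04, limma adjusted p = 0.623) that was -0.47 without pair 2. Gpihbp1, which holds lipoprotein lipase on the capillary wall, differed by 0.01 (0.10 without pair 2). Other endothelial receptors and ligands had a median of -0.21 over 11 genes, which rounded to 0 without pair 2. Of these genes, 3 lay lower in KO in 3 of 3 pairs. The largest difference among them was that of the netrin receptor Unc5b, at -0.58 (limma adjusted p = 0.561) and -0.46 without pair 2. The other Unc5b probe set lay the opposite way, at 0.31. The growth factor Bmp6 differed by -0.46, which rested on pair 2 and was -0.14 without it.

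A list of hypoxia response genes and other genes of Vegfa control had a median of -0.05 over 18 tested genes, and of 0.01 without pair 2. Ppargc1a, Esrra and Zfp36l1 were on it for Vegfa control. Of these genes, 4 were lower and 2 higher in KO in 3 of 3 pairs, beside 19.7% and 10.9% of all genes. Hif1a and Epas1, the oxygen-regulated subunits, differed by -0.26 and -0.38, but by 0.01 and -0.16 without pair 2, and both were slightly higher in KO in pair 3. Egln1 and Egln2, enzymes that mark those subunits for breakdown, lay on opposite sides at -0.43 and 0.45 (-0.31 and 0.41 without pair 2), each in the same direction in 3 of 3 pairs. None of these 4 passed the adjusted limma test (adjusted p from 0.616 to 0.817).

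Markers of other cell types in the tissue were summed in the same way. Of all genes, 19.7% lay lower and 10.9% higher in KO in 3 of 3 pairs. Mural cells, which wrap the capillaries, had summed signals of 233.9 to 275.8 in KO and 268.8 to 321.0 in WT over 10 markers. Of these markers, 4 were lower and 3 higher in KO in 3 of 3 pairs (median -0.21, and -0.05 without pair 2). Fibroblasts and adipocyte progenitors had 253.4 to 314.5 in KO and 222.5 to 258.6 in WT over 7 markers. Of these markers, 4 were higher in KO in 3 of 3 pairs (median 0.21, and 0.41 without pair 2). Brown adipocytes had 2247 to 2885 in KO and 2304 to 2931 in WT over 6 markers (median -0.04, and 0.06 without pair 2). Schwann cells had 19.4 to 27.0 in KO and 46.7 to 76.3 in WT over 3 markers (median -0.03), a gap that came from S100b, with means of 19.2 ± 3.96 in KO and 54.6 ± 15.1 in WT (SD, n = 3). The other Schwann markers, Sox10 and Cdh19, differed by 0.28 and -0.03, and all 3 were named after their values were seen. Skeletal muscle markers ran from 14.9 to 533.1 in KO, with KO 2 highest, and from 42.6 to 201.7 in WT, with WT 3 highest. Platelets had 31.7 to 33.6 in KO and 23.3 to 32.2 in WT over 5 markers, and lymphatic endothelium 7.67 to 11.5 in KO and 4.88 to 7.11 in WT over 4. Prox1, which defines lymphatic endothelium, was near 0 on all arrays, at 0.0243 to 0.374. The part of these cells in the vessel gene differences was not tested.

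**Figure D5:**
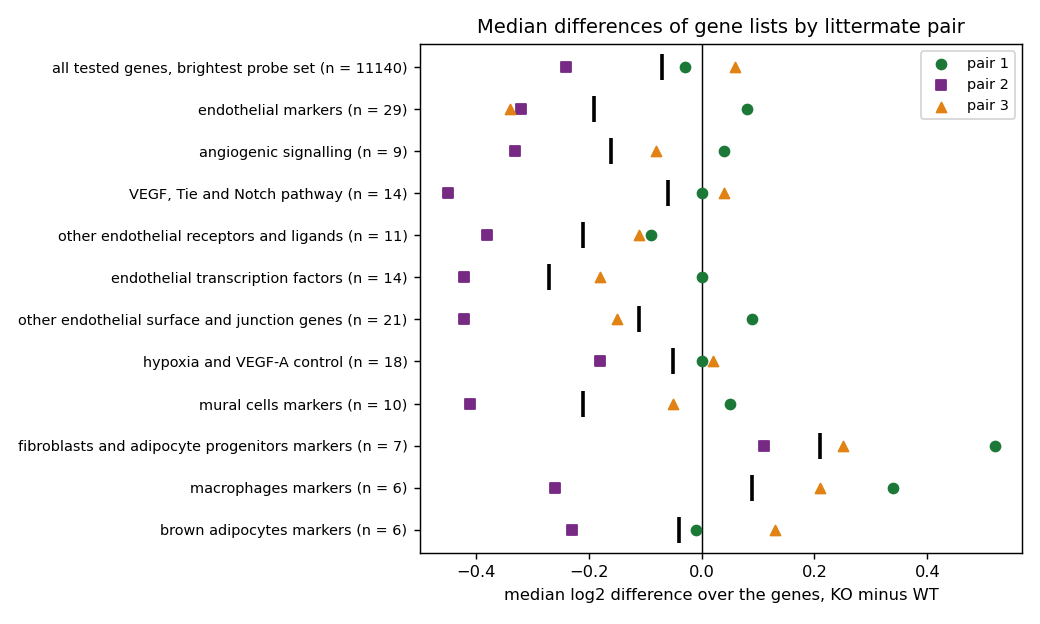
Median log2 difference (KO minus WT, x axis) over the tested genes of each list (y axis, with the number of genes). Black ticks are medians of the fitted differences and symbols the medians within pairs 1, 2 and 3. For the 29 endothelial markers pair 1 lies at 0.08, pair 2 at -0.32 and pair 3 at -0.34, and the fibroblast list lies above 0 in all 3 pairs.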

How the data were processed

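BAT of 3 KO and 3 WT mice was hybridised to 1 Affymetrix array each. The values deposited by the authors were linear signal intensities, 1 for each probe set. GCOS is the software named in the labels, while the algorithm and scaling target it used are not known here. No detection calls were used, so brightness was judged by signal alone. All 6 arrays were grouped by their labels.

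After 64 control probe sets were set aside, 45037 remained. Each intensity was divided by its array median, values below 0.25 were set to 0.25 and log2 was taken, so a difference near the floor is understated. The 22356 probe sets whose scaled signal averaged more than 1 went into 1 limma fit (version 3.58.1, R 4.3.3) with terms for genotype and for littermate pair. P-values came from eBayes and were adjusted by Benjamini-Hochberg over all of these probe sets, with a threshold of 0.05. A fold is 2 raised to the log2 difference. The fit was tested on simulated data. Names came from a platform annotation, in which 34945 probe sets had 1 symbol, 932 several and 9160 none. All 38 members matched the GRCm38.p6 gene table.

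The design text of the series and the methods of the study name littermate pairs by number, so the numbers pair the samples. The KO and WT deviations from their group means had correlations of 0.446, 0.0847 and 0.16 in pairs 1, 2 and 3, and of -0.359 to 0.281 between animals of different pairs, so the pairing rests on the stated design.

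The members and the gene lists were chosen with earlier results of these data known, so no list was tested. Array values were given for preset members (Pecam1, Cdh5, Kdr, Flt1, Tek, Vwf, Nos3, Vegfa, Vegfb, Angpt1, Angpt2 and the SoxF genes) and for those with 1 direction in all 3 pairs and a log2 difference of at least 0.4 in size. Tie1, Calcrl and Mmrn2 were added after their values were seen. From other lists, the 2 largest differences with 1 direction in all pairs could be named, and Hif1a, Epas1, Gpihbp1, Cldn5 and Notch1 always. Alternatives were other scalings, floors, filters, a pseudocount, an intensity trend with a robust prior, the mean over probe sets, no pair block, and each pair left out.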

Additional observations from a re-analysis of the deposited data

How the results depend on the processing

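No member passed the adjusted limma test under any alternative, where the lowest adjusted p of a member was 0.085. The members' median log2 difference stayed below 0, from -0.33 without pair 1 to -0.11 without pair 2, and was -0.12 without scaling and -0.13 after quantile normalization, while the median of all tested probe sets was then 0.01 and 0. Without the pair as a block it was -0.18, the value with the block, and 0 members passed, so the block changed no call. Over all tested probe sets, where 0 passed, 42 passed higher and 81 lower in KO with a pseudocount of 1, 11 and 29 with a mean signal above 2, and 95 and 216 when limma used an intensity trend with a robust prior. With 1 pair left out, 0 to 127 passed higher and 0 to 128 lower, and the highest counts were without pair 1. The cause was not tested. Members lower in KO in every pair compared numbered 14 to 29 with 1 pair left out, and higher 3 to 5.

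The direction held in all alternatives for 30 of 38 members. With 1 pair left out, the difference crossed 0 for the other 8, from -0.02 to 0.02 for Vegfb, -0.24 to 0.03 for Flt4, -1.32 to 0.21 for Angpt2, -0.22 to 0.03 for Tek, -0.33 to 0.04 for Ramp2 (0.03 without pair 2), -0.23 to 0.15 for Ednrb, -0.32 to 0.29 for Eng and -0.01 to 0.49 for Vwf. Tek (0.02) and Ednrb (0.03) turned after quantile normalization, and Ednrb (0.02) without scaling. With the mean over probe sets Flt4 (0.04), Ednrb (0.16) and Eng (-0.15) turned. Leaving out pairs leaves 2 animals a group, and dim genes such as Angpt2 and Clec14a are limited by their distance from the floor.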

Other observations

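Of the lymphatic endothelium markers, 3 were tested, with log2 differences of 0.70, 1.08 and 0.05. Podoplanin (Pdpn), a surface glycoprotein of lymphatic endothelium and of some fibroblasts, read 3.07, 4.34 and 3.77 in KO against 1.5, 2.19 and 3.53 in WT. It was higher in KO in 3 of 3 pairs, with a log2 difference of 0.70 (0.10 to 1.30, limma adjusted p = 0.523) that was 0.56 without pair 2. Lyve1, a hyaluronan receptor of lymphatic endothelium and of some macrophages, named after its values were seen, read 3.73, 5.29 and 3.23 in KO against 4.0, 0.945 and 1.80 in WT. Its log2 difference of 1.08 (-0.02 to 2.17, limma adjusted p = 0.593) was 0.37 without pair 2 and -0.10 in pair 1. Without pair 1 the Lyve1 difference was 1.67 (limma adjusted p = 0.0138, with 2 animals a group). The other Lyve1 probe set differed by 0.47. Reln, the third, was -0.95 in pair 1 and above 0 in the others, and Prox1 was too dim to be tested.

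Among fibroblast genes, Pi16, a marker of fibroblasts around vessels, read 11.2, 9.26 and 8.63 in KO against 5.26, 7.18 and 5.03 in WT. These groups did not overlap, and the log2 difference was 0.74 (0.22 to 1.27, limma adjusted p = 0.469) and 0.93 without pair 2. Col1a1, a chain of fibrillar collagen, was also higher in KO in 3 of 3 pairs without overlap. It differed by 0.52 (0.02 to 1.01, limma adjusted p = 0.569) and by 0.57 without pair 2. The other fibroblast markers, named after their values were seen, differed less. Dpt lay the other way at -0.16, and Pdgfra, Col3a1, Dcn and Lum were at 0.13, 0.16, 0.21 and 0.41.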
